A study of Mus musculus with 2 samples.

Results

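The genes described here are 399 of the 1529 chromosome 14 genes in the count tables, which list 32285 genes in all. They were chosen by detection: a gene on chromosome 14 of the mouse build GRCm38 was taken where at least 5% of the barcodes with 18000 or more UMIs (unique molecular identifiers, each standing for 1 captured RNA molecule) held it in each library. Of 416 genes that passed, 17 were left out by name: 5 symbols starting with Rp, 5 with Psm, 3 with Dnaj, and Spry2, Bmp4, Rb1 and Fdft1. The members just inside the limit were Rnf212b, Zfp503 and Slc7a8, held by 5.02%, 5.10% and 5.11% of barcodes in the lower library, and the genes just outside were Gm30363, Gm26916 and Tmem253, at 4.99%, 4.98% and 4.89%. Of the members, 383 are protein coding. The detection values chose the members and support nothing below.

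The cells were mouse embryonic stem cells of the inbred strain C3H/HeSn-Paf/J, from 9 lines pooled in 1 culture, 3 each from XX, XO and XY embryos. They grew on irradiated mouse fibroblast feeders in serum and LIF, and were captured at an initial early passage (time 1) and after 10 further passages (time 2), in 1 droplet library each. The files used here tie no cell to a line, so lines and the chromosome classes below cannot be told apart. With 1 library per time point no test between groups was possible. Intervals are 95% intervals that cover counting error only.

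Chromosome gains are common in cultured pluripotent stem cells. An extra copy of a chromosome usually raises the RNA of most of its genes in proportion to copy number, while the RNA of some genes is held near its former level by feedback or is set by the state of the cell. Reading a chromosome's genes cell by cell against the share of RNA that the whole chromosome contributes shows which of its genes follow the dosage. Mouse chromosome 14 carries general genes of chromatin, splicing, translation and metabolism as well as developmental regulators such as Otx2, Zic2 and Zic5.

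Promoters of 4 members are shown because they mark the range of response among the most abundant members. The sequences are RefSeq windows of 300 bases on GRCm38.p6, from 250 bases before to 50 after the start, written 5′ to 3′ on the gene's strand. Capitals mark the motifs searched on both strands, the CCAAT box, the TATAAA box and the GC box GGGCGG, none of which contains another. Supt16 (chr14:52197190-52197489, minus strand) had the highest response of the 8 most abundant members, Tpt1 (chr14:75845006-75845305, plus strand) lay nearest the median, and Hnrnpc (chr14:52103972-52104271, minus strand) and Pabpn1 (chr14:54893893-54894192, plus strand) were the lowest after Gm10076.
Supt16: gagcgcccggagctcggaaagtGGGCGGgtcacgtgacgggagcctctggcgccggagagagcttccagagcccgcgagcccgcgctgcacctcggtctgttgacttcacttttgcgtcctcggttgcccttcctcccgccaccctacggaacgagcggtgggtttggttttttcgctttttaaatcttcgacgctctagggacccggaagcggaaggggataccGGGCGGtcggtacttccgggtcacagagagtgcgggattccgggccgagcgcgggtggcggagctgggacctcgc
Tpt1: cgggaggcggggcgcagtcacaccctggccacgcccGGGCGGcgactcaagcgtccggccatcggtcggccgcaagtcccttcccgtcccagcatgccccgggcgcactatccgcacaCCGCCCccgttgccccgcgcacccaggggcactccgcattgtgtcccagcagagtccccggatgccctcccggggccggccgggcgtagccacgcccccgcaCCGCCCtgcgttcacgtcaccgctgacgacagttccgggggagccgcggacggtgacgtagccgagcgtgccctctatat
Hnrnpc: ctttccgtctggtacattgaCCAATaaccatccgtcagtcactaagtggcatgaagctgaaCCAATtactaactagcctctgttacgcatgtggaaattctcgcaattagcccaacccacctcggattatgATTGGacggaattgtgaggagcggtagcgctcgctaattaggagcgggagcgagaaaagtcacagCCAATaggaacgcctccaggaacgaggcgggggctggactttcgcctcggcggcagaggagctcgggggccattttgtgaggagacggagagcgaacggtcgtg
Pabpn1: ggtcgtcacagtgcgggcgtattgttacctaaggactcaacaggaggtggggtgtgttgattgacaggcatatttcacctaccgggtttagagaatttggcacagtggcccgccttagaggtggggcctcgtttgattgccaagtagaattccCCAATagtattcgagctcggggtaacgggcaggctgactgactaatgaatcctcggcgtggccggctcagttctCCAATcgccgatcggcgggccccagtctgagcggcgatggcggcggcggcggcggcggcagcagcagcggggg
The first pair held 2 and 3 copies of GGGCGG and none of CCAAT in these windows, and the second pair held 4 and 2 copies of CCAAT and none of GGGCGG. Promoters were matched for 293 members, giving 387 windows. GGGCGG was in 59.2% of them and in 35.7% of all 32851 windows in the table, CCAAT in 34.4% and 37.4%, and TATAAA in 8.79% and 13.6%. All windows cover 27025 genes, detected or not, whereas the members were chosen by detection. No share over detected genes alone was computed, so these differences cannot be tied to chromosome 14. Among the 43 windows of members whose ratio was below 1.2 in cells with gains of chromosomes 1 and 8, 27.9% held CCAAT and 39.5% GGGCGG, so CCAAT was not more frequent among them than among all members. These are matches of letters, not measured sites.

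After removing likely doublets and cells with more UMIs of other cell types' markers than of pluripotency markers, 22871 cells remained at time 1 and 24503 at time 2, with medians of 43883 and 50275 UMIs. All 12 pluripotency markers were above 0 in the summed gained and non-gained cells of each set compared below. This is no test of identity, since the cells were kept by their pluripotency UMIs. In the non-gained cells of each set, all feeder, endoderm, mesendoderm and trophoblast markers were above 0 too. In the gained cells most markers of each of these lists were. The libraries shared 197 barcode sequences. In the 4449 and 7491 barcodes under 1000 UMIs, members were also detected (Hnrnpc at 518 CPM at time 1, in the unit defined below, against 487 in cells without a chromosome gain), and free RNA was not subtracted. A group of 159 cells at time 1 and 49 at time 2 held at least 10 UMIs of macrophage genes (Lyz2, Tyrobp, Fcer1g, Cd68, Laptm5), a list chosen after the data were seen. Of the 80 time 1 cells called gained below, 11 were such cells, and time 1 values are therefore given without them as well.

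The chromosome 14 ratio of a cell was its share of autosomal UMIs from chromosome 14, divided by the median share of time 1 cells, with the gene under study left out. Cells fell into separate modes. At time 2, 17.2% of cells (16.7 to 17.6; 4205 of 24503) had a ratio of at least 1.3 and were called gained, against 0.350% (0.277 to 0.435; 80 of 22871) at time 1. These shares depend on the limit: at 1.4 they were 3.89% and 0.166%, and at 1.2 they were 21.4% and 0.529%. The gained cells of time 2 had a median ratio of 1.36. Cells between 1.1 and 1.3 made up 5.07% at time 1 and 8.01% at time 2 and were left out of both classes. At time 2, 89.5% of gained cells also carried gains of chromosomes 1 and 8, 267 carried chromosome 1 without 8, and 109 had no chromosome 1 gain. For chromosome 1 the limit was 1.3 as well, but chromosome 8 counted as gained from 1.1 upward. Cells said to lack either gain had a ratio below 1.1 for that chromosome. In the gained cells with gains of 1 and 8, the median chromosome 8 ratio was 1.26. A gain here is a call from RNA, and no DNA was measured.

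**Figure D1:**
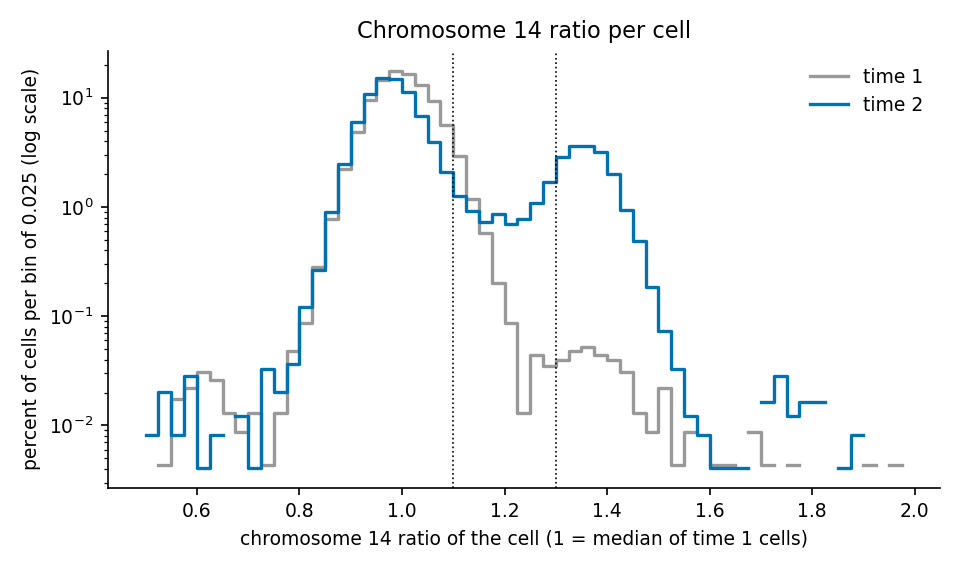
Distribution of the chromosome 14 ratio over cells, with the ratio on the x axis and the percent of cells per bin on a logarithmic y axis, for time 1 (grey) and time 2 (blue); dotted lines mark 1.1 and 1.3. Time 2 has an upper mode around its gained-cell median of 1.36, and small groups lie below 0.7 and above 1.6.

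Most members were higher in gained cells, by close to the factor that the chromosome as a whole was higher. The main comparison used time 2 cells that all carried a chromosome 1 gain and no chromosome 8 gain, 267 of them gained for chromosome 14 and 1343 not gained (ratio 0.8 to 1.1). Levels are counts per 1000000 UMIs of the autosomes other than 1, 8 and 14 (CPM here). The median member ratio of gained over non-gained level was 1.48 (middle 50% of members 1.33 to 1.63), and the mean chromosome ratio of the classes differed 1.44-fold. The 11248 tested genes of other autosomes had a median of 0.99 and a middle 50% from 0.89 to 1.09, a relative spread about as wide as that of the members. A ratio of at least 1.2 was reached by 346 of 399 members, where the background over all 11664 autosomal genes was 14.9%, and 8 members were at or below 1/1.2, where the background was 15.7%. The gene-wise interval held 1.5 for 241 members. Cells were classed by the summed RNA of chromosome 14 genes, so that most members are higher follows from the classing and is given as a description, as are the differences among members. In the reading by position below, the genes read took no part in the classing.

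The response was of like size in 3 other sets of cells that share no cell with the first. In 3765 gained against 7077 non-gained time 2 cells that all carried gains of 1 and 8, the median member ratio was 1.5 (1.36 to 1.61), with 348 members at 1.2 or more (background 11.8%) and 4 at or below 1/1.2 (background 10.9%): Samd4 at 0.75, Otx2 at 0.57, Defb42 at 0.80 and Nefm at 0.69. Among time 2 cells without a chromosome 1 gain, 109 against 7352, it was 1.49 (1.3 to 1.68), with 331 members higher (background 17.6%) and 18 lower (background 18.7%). Chromosome 8 was not limited in that set, and its median ratio was 1.32 in gained and 1.29 in non-gained cells. At time 1, 80 gained cells against 21581 gave 1.44, with 329 members higher (background 26.3%) and 13 lower (background 15.3%). Without macrophage-marker cells, 69 against 21461 gave 1.49, with 344 higher (background 23.9%) and 13 lower (background 14.8%), and these cells are used below wherever gained and non-gained cells of time 1 are compared, unless said otherwise. Over all time 2 cells, whatever their other gains, 330 members were higher (background 13.2%) and 16 lower (background 17.6%).

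**Figure D2:**
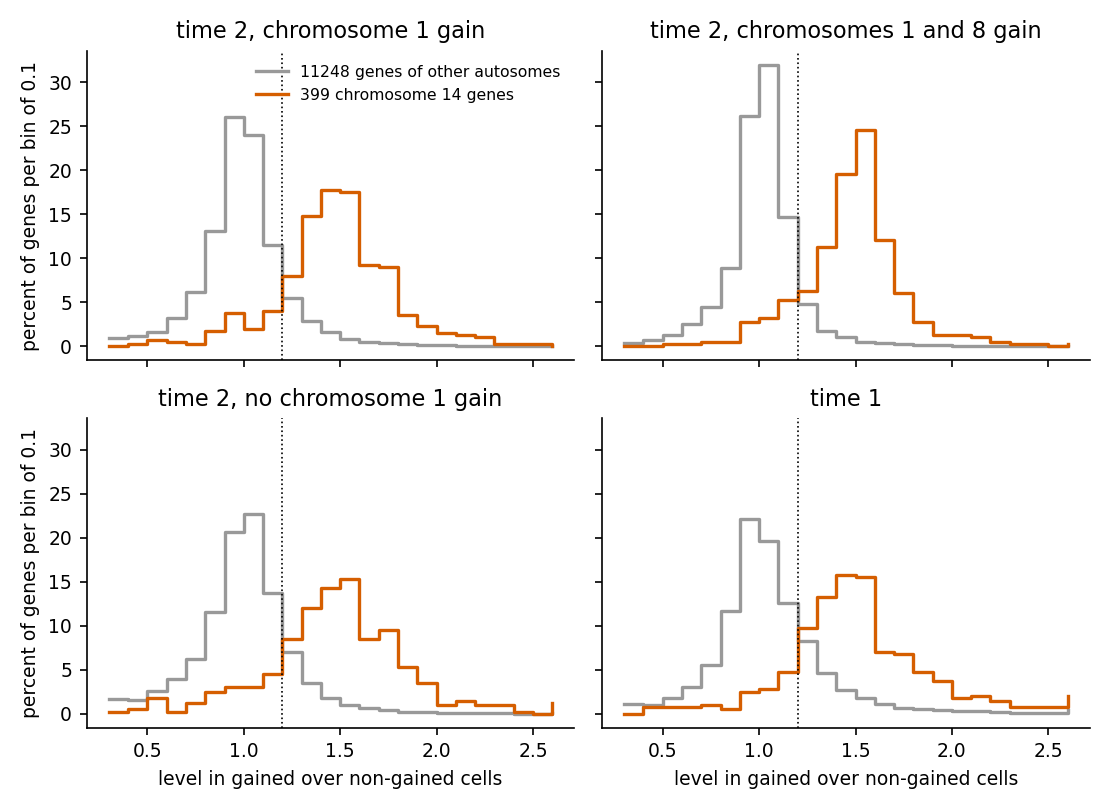
Percent of genes (y axis, per bin of 0.1) by ratio of level in chromosome 14-gained over non-gained cells (x axis) in 4 sets of cells, for the 399 members (orange) and 11248 genes of other autosomes (grey); values beyond the ends are pooled in the end bins and the dotted line marks 1.2. The members' distribution centres at 1.48 to 1.5 in each panel and the other genes' near 1.

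Of 238 members with at least 50 UMIs in each class of all 4 sets, 194 had a ratio of at least 1.2 in all 4, where 3.93% of all 5929 such genes did, and 5 were below 1.2 in all 4, where 72.5% of such genes were. These 5 were Gm10076, AC160336.1, Hnrnpc, Otx2 and Zic2. With gains of 1 and 8 in both classes, the interval held 1.5 for 106 of the 399 members, so many members lay off that value by more than counting error. The same held off the chromosome: the middle 50% of other autosomal genes ran from 0.94 to 1.1 in that set and 39.7% of them had an interval above 1, so spread among members of this size is not particular to chromosome 14. In that set the middle 50% of ratios ran from 1.2 to 1.68 in the 133 members with the lowest levels, from 1.4 to 1.62 in the middle 133 and from 1.39 to 1.56 in the highest 133. Scatter was thus larger among weakly expressed members, and the medians of these groups, 1.47, 1.53 and 1.49, were close together.

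Over the 222 members with 200 UMIs in each class of both chromosome 1 sets, the log2 ratios of the 2 sets correlated with Pearson's r = 0.62 and Spearman's rho = 0.57 across genes. Genes are not independent replicates, and both sets come from the time 2 library. For the set with gains of 1 and 8 against cells without a chromosome 1 gain, r was 0.53 and rho 0.47 over 121 members, and against time 1, the other library, r was 0.34 and rho 0.32 over 96 members. Of 14 members below 1.2 in the first set and 13 in the second, 7 were shared, 50% and 53.8% of each: Gng2, AC160336.1, Otx2, Hnrnpc, Pabpn1, Nefl and Gm10076. At 1.8 or more, 7 members were shared of 17 and 12, 41.2% and 58.3% of each. Genes of other autosomes under the same UMI limit had r = 0.63 and rho = 0.57 over 5455 genes in the pair of chromosome 1 sets. Of 150 and 149 such genes below 0.8, the members' limit of 1.2 divided by 1.5, 60 were shared, 40% and 40.3% of each, and of 425 and 342 at 1.2 or more, 199 were shared, 46.8% and 58.2%. The members' values in this pair were thus close to those of other genes.

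In the other 2 pairs the members' correlations and their overlaps below 1.2 were above those of other genes, on few members. With gains of 1 and 8 against no chromosome 1 gain, other genes had r = 0.35 and rho = 0.36 over 3034 genes, and against time 1 r = 0.14 and rho = 0.25 over 2185. Below 1.2, 3 members (Lgals3, Hnrnpc and Gm10076) were shared of 5 and 3 in the first of these pairs, 60% and 100% of each, where 16 other genes below 0.8 were shared of 71 and 66, 22.5% and 24.2%. In the second, 2 members (Hnrnpc and Gm10076) were shared of 6 and 5, 33.3% and 40%, where 11 other genes were shared of 68 and 38, 16.2% and 28.9%. These differences were not tested. At 1.8 or more, 0 members were shared of 1 and 7 in the first pair, and 0 of 0 and 5 in the second. Of other genes at 1.2 or more, 32 were shared of 117 and 200, and 14 of 72 and 137. The members above this limit are too few for a comparison.

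**Figure D3:**
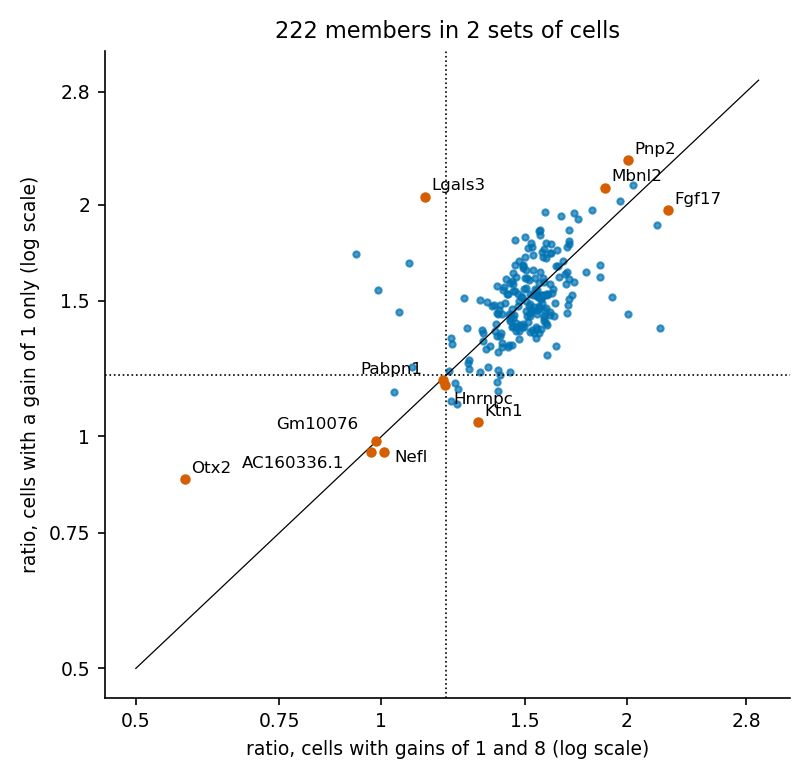
Ratio of each of 222 members in cells with a gain of chromosome 1 only (y axis) against the ratio in cells with gains of 1 and 8 (x axis), both logarithmic; the line marks equal values and dotted lines mark 1.2. Most members lie between 1.3 and 1.8 on both axes, Gm10076 and AC160336.1 lie near 1 on both, and Lgals3 is high on one axis only.

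Of the 8 most abundant members, 5 had ratios from 1.37 to 1.62 in the main set. Tpt1, which encodes the translationally controlled tumour protein and was the most abundant member, stood at 8038 (7985 to 8091) CPM in gained and 5402 (5383 to 5421) in non-gained cells of the main set, a ratio of 1.49 (1.48 to 1.5). Supt16, a subunit of the histone chaperone FACT, went from 515 (509.7 to 521) to 836 (819 to 854), a ratio of 1.62 (1.58 to 1.66), and Gnl3, the nucleolar GTPase nucleostemin, from 482 to 750.1, a ratio of 1.56 (1.52 to 1.6). Rtraf, a component of the tRNA ligase complex, had 1.37 (1.34 to 1.4) and Nedd8, the ubiquitin-like modifier of cullins, 1.4 (1.36 to 1.43). In the other 3 sets, in the order given above, Tpt1 had ratios of 1.42, 1.51 and 1.55, Supt16 1.68, 1.74 and 1.44, and Gnl3 1.54, 1.71 and 1.39. Members whose ratio sat at the median were Tm9sf2, a transmembrane protein of the secretory route (72.4 against 48.9, ratio 1.48), Itm2b (103 against 69.7, 1.48) and Ppp3cb, a catalytic subunit of calcineurin (53.2 against 36.0, 1.48).

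The remaining 3 abundant members had ratios well under the member median. Hnrnpc, which binds nascent pre-mRNA, stood at 811 (794 to 828) CPM in gained and 695 (688 to 701) in non-gained cells, a ratio of 1.17 (1.14 to 1.19). Its ratios in the other sets were 1.2, 1.13 and 1.16. Pabpn1, the nuclear poly(A)-binding protein, had 721 (705 to 737) against 609.5 (603 to 616), a ratio of 1.18 (1.15 to 1.21), and 1.19, 1.26 and 1.33 elsewhere. Hnrnpc and Supt16 are consecutive members along the chromosome, at chr14:52073377-52104028 and chr14:52160414-52197416, both on the minus strand, yet their intervals lay far apart. Chd8, a chromatin remodeller and the next member after Supt16, had a ratio of 1.53 in the main set.

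Gm10076, annotated as a lincRNA at chr14:105681828-105682211 on the plus strand, showed no increase. It stood at 546 (533 to 559) CPM in gained and 554 (548 to 560) in non-gained cells, a ratio of 0.99 (0.96 to 1.01; 299 and 1291 cells once it is left out of the chromosome share), and had 0.98, 1.00 and 0.93 in the other sets. AC160336.1, another lincRNA, had 52.5 against 54.9, a ratio of 0.96 (0.87 to 1.04), then 0.97, 0.74 and 1.07. Whether reads of either gene could come from copies elsewhere in the genome was not tested here, and AC160336.1 overlaps 5 other annotated genes, so both counts are uncertain in their source. Whether the counting used strand is not given in the sources used here, and Supt16, Gnl3, Nedd8 and Tinf2 overlap another gene on the opposite strand.

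Across roles, most members of each of 7 lists of chromosome 14 genes were higher in gained cells. The lists were chosen with earlier results of these data known. In the main set, against the background of 14.9%, a ratio of at least 1.2 was reached by 26 of 30 members for chromatin and transcription (list median 1.44), 24 of 25 for mitosis and genome maintenance (1.53), 21 of 22 for RNA processing and translation (1.5), 23 of 24 for metabolism and mitochondria (1.51), 20 of 21 for the secretory pathway and nuclear transport (1.47), 15 of 17 for the ubiquitin system (1.4) and 16 of 17 for signalling (1.59). Since the lists hold chromosome 14 members, the share over all members is the one to set them against. It was 86.7%, and the median over all members was 1.48. In cells with gains of 1 and 8 the same counts were 26, 25, 21, 22, 21, 17 and 15, and the list medians ran from 1.47 to 1.58. Of all members, 87.2% reached 1.2 there.

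Within the chromatin list, Klf5, a transcription factor of naive pluripotency, stood at 351 against 197 CPM (ratio 1.78, 1.72 to 1.85) and Elf1, an ETS family factor, at 18.6 against 9.65 (1.93, 1.64 to 2.27). In the mitosis list, Sugt1, an HSP90 co-chaperone needed for kinetochore assembly, had 657 against 369 (1.78, 1.73 to 1.83). Apex1, the main abasic-site endonuclease, had 493 against 322 (1.53) and Tinf2, a shelterin subunit, 38.8 against 21.3 (1.82). Cdkn3, a phosphatase that acts on cyclin-dependent kinases, was the lowest of the list at 27.0 against 24.3 (1.11, 0.98 to 1.26). Among metabolic members, Vdac2, a channel of the outer mitochondrial membrane, had 679.9 against 468 (1.45), Tkt, the transketolase of the pentose phosphate pathway, 434 against 303 (1.43), and Pnp, purine nucleoside phosphorylase, 280.2 against 163 (1.72). Adk, adenosine kinase, was the lowest of the metabolic members named here at 119.7 against 97.9 (1.22, 1.15 to 1.3).

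In the secretory list, the import receptor Ipo5 had 452 against 287 (1.58), Dad1, a subunit of oligosaccharyltransferase, 369 against 251 (1.47), and Sec24c, a COPII coat protein, 28.0 against 16.2 (1.73). Ktn1, the kinesin-binding membrane protein kinectin, had 207 against 198 (1.04, 1.00 to 1.09) in the main set but 1.31 (1.3 to 1.33) with gains of 1 and 8, and 1.27 and 1.49 in the other sets. Of the ubiquitin list, Uchl3, a hydrolase of ubiquitin and Nedd8 adducts, had 322 against 232 (1.39) and Ndfip2, an adaptor of Nedd4-type ligases, had 28.1 against 23.2 (1.21, 1.07 to 1.37). Of the signalling list, Ppp2r2a, a regulatory subunit of the phosphatase PP2A, had 207 against 147 (1.41), Ajuba, a LIM-domain protein of the Hippo pathway, 105 against 56.8 (1.86), and the kinase Stk24 50.2 against 38.0 (1.32).

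Highest in the main set among members with 200 UMIs in each class was Pnp2 (27.5 against 12.1 CPM, ratio 2.28, 1.99 to 2.61). Pnp2 overlaps its paralogue Pnp on the same strand, and how reads shared by both were counted was not checked, so its count is less certain. Dgkh, a diacylglycerol kinase, followed with 25.8 against 12.2 (2.12, 1.84 to 2.43), and Mbnl2, a regulator of splicing, with 49.5 against 23.5 (2.10, 1.90 to 2.32). Nynrin had a ratio of 2.02, Ints6, an Integrator subunit, 1.97, the growth factor gene Fgf17 1.97 and Kctd6 1.96. Among the 238 members with 50 UMIs in each class of all 4 sets, Mbnl2 and Fgf17 were at 1.8 or more in all 4: Mbnl2 had 1.88, 2.00 and 2.32 in the other sets, and Fgf17 had 2.24, 1.85 and 2.09. Zfhx2, a homeobox gene, reached 1.8 in 3 sets, with 1.88, 2.18 and 1.94, and had 1.2 (0.96 to 1.49) in cells without a chromosome 1 gain.

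Otx2, a transcription factor of the primed and formative epiblast, was not higher in gained cells of any set. It stood at 23.4 (20.7 to 26.4) CPM in gained and 26.6 (25.3 to 27.9) in non-gained cells of the main set, a ratio of 0.88 (0.77 to 1.00). With gains of 1 and 8 it was 14.8 (14.2 to 15.4) against 25.8 (25.3 to 26.4), a ratio of 0.57 (0.55 to 0.60), and it was 0.52 (0.40 to 0.67) without a chromosome 1 gain and 0.50 (0.38 to 0.64) at time 1. Among genes of other chromosomes, the primed epiblast markers were lower beside it: Fgf8 had 3.52 against 39.3 CPM in the main set and 2.09 against 10.2 with gains of 1 and 8, and Dnmt3b had 125 against 199 and 70.5 against 123. The summed primed list had ratios of 0.53 and 0.56 in these sets and 0.83 and 0.79 in the others, and the naive list 1.41, 1.35, 1.1 and 0.97. When the main set was restricted to cells at or below the library's median of the primed list, Otx2 had a ratio of 1.1 (142 against 559 cells).

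Several other members below 1.2 in the main set had larger ratios under the same restriction. It left 141 gained and 559 non-gained cells, and the restricted ratios are given without intervals. Nefl, a neurofilament subunit, had 45.6 against 47.7 CPM (ratio 0.96, 0.87 to 1.05) and 2.04 in cells at or below the median primed level; it had 1.01, 1.25 and 1.46 in the other sets and overlaps Nefm on the opposite strand. Zic5, a zinc finger regulator, had 26.6 against 24.1 (1.1, 0.97 to 1.25) and 1.5 after it, Cdkn3 1.39, and Gng2, a G protein gamma subunit with 52.0 against 45.6 (1.14, 1.04 to 1.25), 1.32. Ktn1 had 1.17 and Dok2, at 0.84 (0.63 to 1.11) in the main set, 1.54. Dok2 is weakly expressed, with 7.86 CPM in non-gained time 2 cells. Gm10076, Hnrnpc and Pabpn1 had 0.99, 1.12 and 1.18 under the restriction, near their values in the full set. Zic2, the neighbour of Zic5 and named after its values were seen, was near 1 in all 4 sets, at 0.93, 0.97, 0.93 and 0.94.

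The other marker lists also differed between the classes. Gained over non-gained, the main set and the set with gains of 1 and 8 had ratios of 0.93 and 0.75 for the pluripotency list, 1.11 and 1.07 for feeder fibroblasts, 0.71 and 0.83 for primitive or parietal endoderm, 0.30 and 0.75 for mesendoderm, 0.78 and 0.57 for trophoblast and 0.26 and 0.76 for 2-cell-like cells. The other sets did not all go the same way. Without a chromosome 1 gain and at time 1, the feeder list had 0.71 and 1.28, endoderm 0.85 and 1.08 and trophoblast 0.49 and 1.37. Mesendoderm had 0.33 and 0.57, 2-cell-like cells 0.98 and 0.075, and the pluripotency list 0.72 and 0.80. The 2-cell-like list was near the floor in gained cells. It summed to 0.18 CPM in the main set, with 2 of 5 markers above 0, and 0.37 with gains of 1 and 8, with 4 of 5. It summed to 1.43 CPM without a chromosome 1 gain and 0.35 at time 1, with 1 of 5 markers above 0 in each. Members of a list did not all go one way: in the pluripotency list Dppa5a, at 5376 against 6408 CPM in the main set, had 0.84 and 0.51, while Pou5f1 had 1.13 and 1.08 and Sox2 1.16 and 1.14. In the feeder list Sparc had 1.15 and 1.09 and Col1a1 0.60 and 0.87. The classes of these sets had similar shares of cells with high X-linked RNA, 3.37% against 3.57% and 0.664% against 0.791%, while without a chromosome 1 gain the shares were 6.42% against 25.3% and at time 1 18.8% against 43.3%. Restricting the main set to X-low cells (258 against 1295) gave a median member ratio of 1.48. No such restriction was made in the sets whose X shares differed. Beyond this and the restriction on the primed list, the part of the marker and X differences in single member ratios was not tested.

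Some members depended on the set of cells. Lgals3, which encodes galectin-3, stood at 60.2 against 29.4 CPM in the main set (ratio 2.05, 1.87 to 2.24) but at 33.1 against 29.2 with gains of 1 and 8 (1.13, 1.09 to 1.17), and at 0.96 over all time 2 cells. The 2 time 1 levels given next differ both in macrophage-marker cells and in the range of the chromosome 14 ratio, so they are not a like-for-like pair. Lgals3 had 416 CPM over all gated cells from 1.3 to 1.5, and 70.3 without macrophage-marker cells from 1.3 to 1.6. Leaving 3 such gained cells out of the main set, its ratio was 2.07 (264 against 1339 cells). In all, 8 of the 222 members, 3.60%, differed more than 1.35-fold between these sets, where 109 of 5455 genes of other autosomes did, 2.00%. The others, named after their values were seen, were Rnf17 (1.68 and 1.08), Ephx2 (1.55 and 0.99), Lcp1 (1.72 and 0.93) and Saysd1 (1.45 and 1.05), which were higher in the main set, and Zmiz1 (1.38 and 2.2) and Top2b (1.44 and 2.00), which were higher with gains of 1 and 8. The remaining one was Otx2.

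By position, the response at time 2 was present in both parts of the chromosome and in every window read. The members span from 6087295 to 122984035, and a split at 55560006 gave 199 proximal and 200 distal members. To keep the genes read apart from the genes that class the cells, each of these parts was read in cells classed by the other. Proximal genes summed to 18700 CPM in cells gained by the distal part and 13092 in cells not gained, a ratio of 1.43 (1.42 to 1.44), and distal genes to 12617 against 8760, a ratio of 1.44 (1.43 to 1.45). With gains of 1 and 8 the ratios were 1.42 and 1.45, and without a chromosome 1 gain 1.4 and 1.45. At time 1 distal genes had 1.4, while proximal genes had 1.18 in the 150 cells classed by the distal part. Over all 22871 gated cells of time 1, macrophage-marker cells included, 95 passed the limit by the distal part with the proximal part at 0.8 to 1.1, with a median of 29759 UMIs, and 4 the other way round. At time 2, 1950 cells were gained by both parts, 102 by the proximal part with the distal part at 0.8 to 1.1, and 8 the other way round. Most other cells gained by 1 part fell in none of these classes: 4678 cells were gained by the proximal part whatever the distal ratio, which had a median of 1.28 in them, and 2168 by the distal part. A class of 15426 time 2 cells was gained by neither part, and it leaves out some cells that were below 1.3 in both. In this class the median ratio was 1.01 for the proximal and 0.92 for the distal part. The limit of 1.3 was thus further off for the distal part in these cells, and the time 2 counts do not compare the parts on equal terms.

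In windows of 10 Mb, each read in cells classed by the rest of the chromosome, the 12 windows with at least 5 informative genes had ratios from 1.22 to 1.71 in the main set and from 1.23 to 1.58 with gains of 1 and 8. The stretch from 80 to 90 Mb was not among them. The lowest window in both was 100 to 110 Mb, with 1.22 (1.2 to 1.24) and 1.23 (1.23 to 1.24). It holds Gm10076, and without that gene the window had 1.45 (1.42 to 1.48) and 1.5 (1.49 to 1.51). The highest was 0 to 10 Mb in the main set at 1.71 (1.66 to 1.76), which had 1.52 with gains of 1 and 8. There the highest was 70 to 80 Mb at 1.58 (1.57 to 1.58), which had 1.56 in the main set. At time 1 the windows of 40 to 50 Mb and 60 to 70 Mb had 1.83 and 1.81, and 1.46 and 1.52 when the macrophage-marker cells were left out. Across members the ratio had almost no rank relation with order along the chromosome (Spearman's rho of 0.03 over 222 members of the main set and 0.03 over 393 with gains of 1 and 8).

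**Figure D4:**
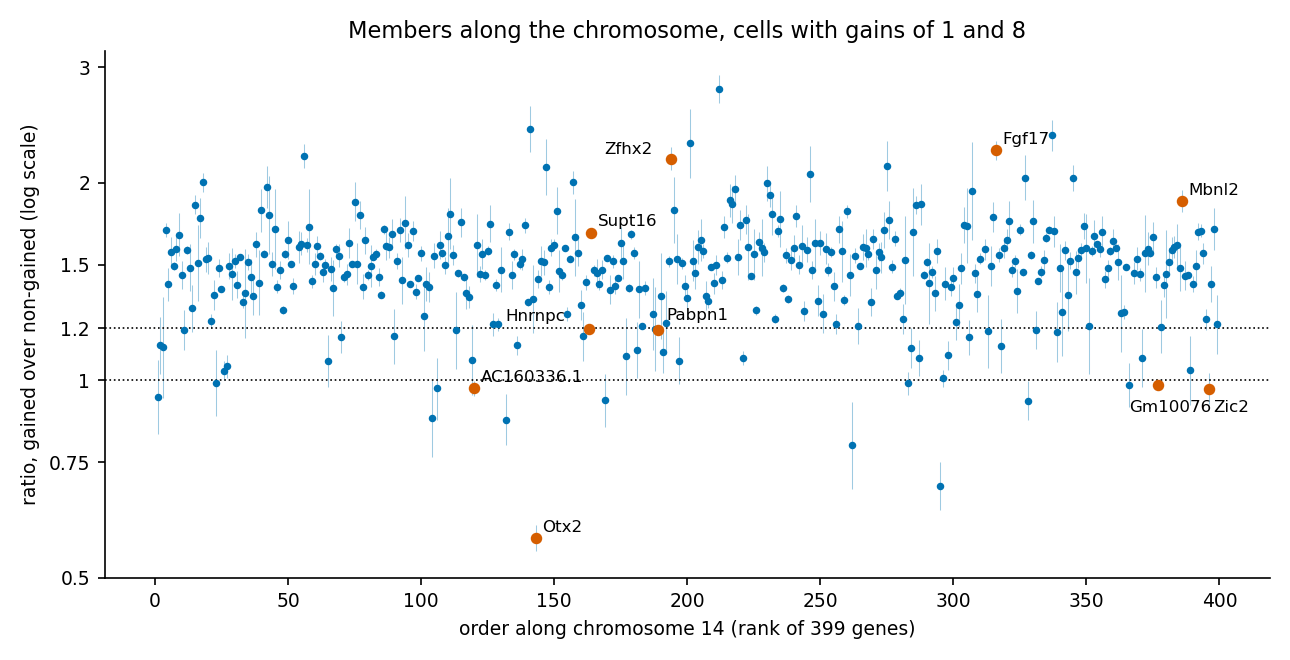
Ratio of gained over non-gained level (logarithmic y axis, with counting intervals) for 393 members in cells with gains of 1 and 8, ordered by their rank along chromosome 14 (x axis); dotted lines mark 1 and 1.2 and orange points are labelled genes. Members near 1.5 occur throughout, low members such as Otx2, Hnrnpc and Gm10076 are scattered, and Supt16 at 1.68 is adjacent to Hnrnpc at 1.2.

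Over bins of the chromosome 14 ratio at time 2, all gated cells taken, Supt16 had 506 CPM below 0.9, 510.5 from 0.9 to 1.1, 746 from 1.1 to 1.3, 884 from 1.3 to 1.5 and 1001 at 1.5 and above. Tpt1 had 5027, 5442, 6780, 7868 and 9358 CPM over the same bins. Hnrnpc had 671, 683, 752, 859 and 806, and Gm10076 had 668, 600.3, 614, 576 and 561. The level of Supt16 was thus higher from bin to bin above 1.1. That of Hnrnpc was no higher in the top bin than in the one before. That of Gm10076 was highest in the lowest bin. The bins mix cells with different gains of other chromosomes, so they are not a series of chromosome 14 dosage alone. Cells from 1.1 to 1.3 had a median of 65035 UMIs, against 50464 from 0.9 to 1.1 and 49363 from 1.3 to 1.5. Whether doublets remained in that bin was not tested. The top bin held only 62 cells.

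Cells at the ends of the ratio distribution had lower and higher member levels. They also differed in other gains at time 2: the median chromosome 1 and 8 ratios were 1.26 and 1.29 in the low class, 1.47 and 1.25 in the middle class and 1.45 and 0.90 in the high class, against 1.18 and 1.28 in non-gained cells, and the part of these gains in the values was not tested. Without macrophage-marker cells, 32 cells of time 1 and 23 of time 2 had a ratio below 0.7. The median member level in them, relative to non-gained cells of the same library, was 0.56 and 0.54, with 342 members at or below 1/1.2 at time 1 (background 25.5%) and 344 at time 2 (background 31.5%). At time 2, 30 cells had a ratio of at least 1.6, and the median member stood at 1.96 in them, with 351 members at 1.2 or more (background 27.8%). The 4170 cells between 1.3 and 1.6 had a median of 1.45, and genes of other autosomes had medians of 0.99, 1.00 and 0.99 in the low, middle and high class of time 2. Of the 9 time 1 cells at 1.6 or more, 7 were macrophage-marker cells, and that class is not described further.

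Single members differed over these classes at time 2. Supt16 stood at 0.56 (0.50 to 0.64) of the non-gained level in the low class, 1.73 (1.72 to 1.74) in the middle class and 2.32 (2.19 to 2.45) in the high class, and Sugt1 at 0.49, 1.78 and 2.62. Tpt1 had 0.66, 1.45 and 1.86, Nedd8 0.57, 1.47 and 1.92, and Vdac2 0.56, 1.47 and 1.92. Pabpn1 had 0.64, 1.21 and 1.42. Hnrnpc had 0.66 (0.59 to 0.73) in the low class, 1.26 (1.25 to 1.27) in the middle and 1.24 (1.16 to 1.33) in the high class, so its level was no higher at the highest chromosome ratio than at the middle one. Gm10076 had 1.09 (1.00 to 1.18), 0.96 and 0.89 (0.82 to 0.96), and in the low class of time 1 it had 1.03 (0.98 to 1.09). Otx2 was below 1 in all of these classes, at 0.37 (0.17 to 0.70), 0.55 and 0.45. Some members below the member median in the main set were not low in the high class: Nefl had 0.37, 0.72 and 2.51 (2.10 to 2.96), Cdkn3 0.82, 1.13 and 1.91 (1.37 to 2.59), and Ndfip2 0.45, 1.19 and 1.91 (1.41 to 2.51).

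**Figure D5:**
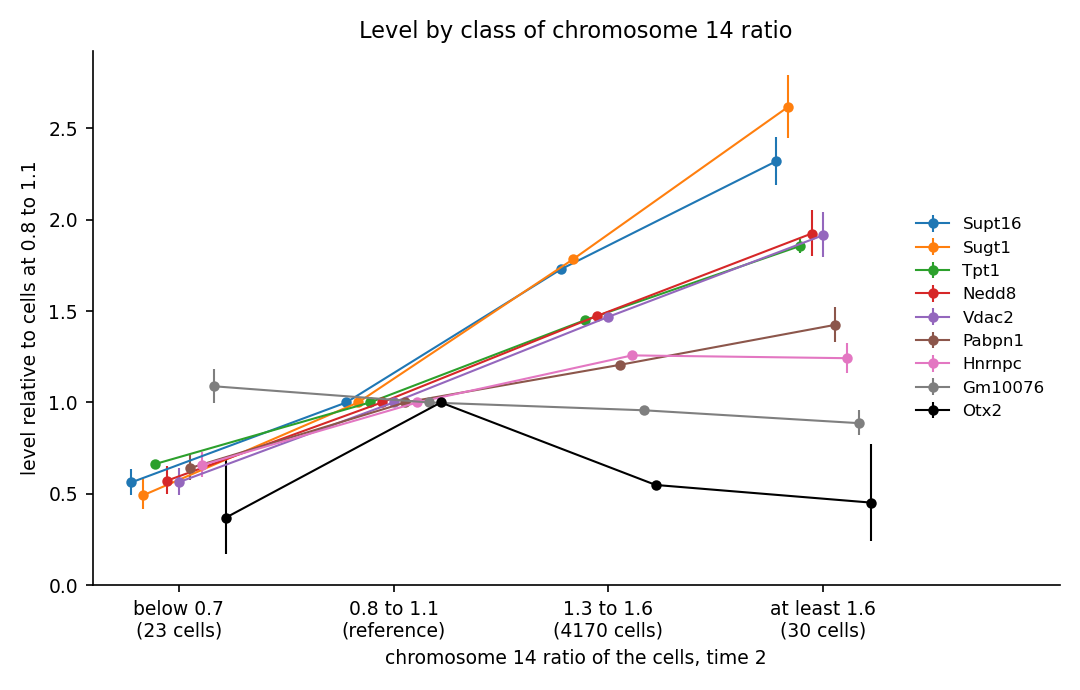
Level of 9 members relative to cells at a chromosome 14 ratio of 0.8 to 1.1 (y axis, with counting intervals) in 4 classes of time 2 cells (x axis, shifted sideways for legibility). Supt16 and Sugt1 stand above 2 in the highest class, Hnrnpc is at 1.24, Gm10076 at 0.89 and Otx2 below 1.

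Few members differed with passage. In cells without a gain of 1, 8 or 14 (17319 at time 1, 2757 at time 2, macrophage-marker cells included), the median log2 ratio of time 2 over time 1, with 1 added to each level, was -0.047 for members and -0.048 for genes of other autosomes. At least a doubling was seen for 5 members (background 0.789%), AC160336.1, Zfhx2, Phf11d and, below the level the rule for named genes asks for, Enox1 and Tgm1, and at least a halving for 1 (background 1.05%), Ogdhl, which has 17.9 and 7.79 CPM and falls outside that rule too. The largest rise among members of at least 20 CPM at either time was AC160336.1, from 18.96 (18.6 to 19.3) to 62.4 (61.1 to 63.8), a log2 ratio of 1.67. Zfhx2 went from 9.21 to 22.3 (1.19), Phf11d from 11.0 to 24.3 (1.08), Tdh, the threonine dehydrogenase that is abundant in mouse embryonic stem cells, from 146 to 286 (0.96), and the histone acetyltransferase gene Kat6b from 58.1 to 113 (0.94).

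The largest declines among members of at least 20 CPM at either time were Pdlim2, from 20.8 to 9.98 CPM (-0.99), Gm10076, from 1194 to 612 (-0.96), Gng2, from 80.6 to 43.0 (-0.89), the adaptor gene Dok2, from 26.7 to 14.01 (-0.88), and Mir17hg, the host gene of a microRNA cluster, from 29.7 to 17.0 (-0.77). The cells compared also differed in state: the primed list went from 461 to 336 CPM, the naive list from 674 to 1133 and the share with high X-linked RNA from 45.3% to 56.1%. In X-low cells the log2 ratio of Zfhx2 was 0.67 and that of Phf11d 0.59, while AC160336.1 had 1.57 and Gm10076 -1.02. Tdh and Kat6b had 0.83 and 0.71 there. Of the other declines, Pdlim2 had -0.62, Gng2 -0.56, Dok2 -0.76 and Mir17hg -0.72. Within time 2, the gained over non-gained ratio of Gm10076 lay between 0.98 and 1.00 in the 3 sets and that of AC160336.1 between 0.74 and 0.97.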

How the data were processed

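From 2 droplet libraries, 1 per time point, counts of pooled mouse embryonic stem cells were analysed. The authors deposited UMI counts per gene and barcode, as whole numbers, per the file headers, and Cell Ranger 6.1.2, bcl2fastq 2.20.0.422 and GRCm38 (mm10) are named in the submitters' processing notes; the filter that set the deposited barcodes is not given in the sources used here. The files hold 145288 and 52242 barcodes, of which 26345 and 28359 had at least 18000 UMIs.

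Cells had at least 18000 UMIs, 1000 genes and at most 10% mitochondrial UMIs. Scrublet (scanpy 1.11.5) marked 0 doublets at its automatic threshold, so the top 10% of its scores per library was removed, a choice made after seeing that. A cell was kept where pluripotency UMIs exceeded the summed feeder fibroblast, endoderm, mesendoderm and trophoblast UMIs; 369 and 549 kept or dropped cells lay within a factor of 2 of that limit. Chromosome ratios used 11533 autosomal genes, 412 of them on chromosome 14, each detected in 5% of barcodes per library; ribosomal protein genes were left out, as was any gene above 3% of its chromosome's UMIs (Rpl15, Rps24 and Tpt1 on chromosome 14). Of 32285 listed genes, 32235 matched GENCODE M21, which gave coordinates and gene types; promoters came from RefSeq on GRCm38.p6. X-high cells had an X ratio of at least 1.2 times the median of cells with 2 or more Y-linked UMIs.

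Counts were summed per class of cells. Levels have exact Poisson intervals, shares exact Clopper-Pearson intervals and ratios exact conditional binomial intervals, all for counting error only. Cells are not replicates, so no p-value is given. The members and gene lists were chosen with earlier results of these data known. Named genes were, among members with 200 UMIs in each class, the 8 highest and 8 lowest ratios, the 8 most abundant, the 3 nearest the median, the 5 largest rises and falls with passage, and 4 per list (the 2 most abundant, the highest and the lowest); 1 gene of the ubiquitin list is not reported here. The sets with gains of 1 and 8 and without a chromosome 1 gain, the macrophage list and the comparisons of sets over genes of other autosomes were added after seeing the data. Alternatives changed 1 choice at a time, including TMM factors from edgeR 4.0.16 (R 4.3.3). The functions were tested on simulated data. The software was numpy 2.4.6, pandas 2.3.3 and scipy 1.17.1 under Python 3.11.15.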

Additional observations from a re-analysis of the deposited data

How the results depend on the processing

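No paired analysis was possible because each group is 1 library, and for the same reason no library could be left out. The median member ratio of the main set, 1.48, was 1.46 and 1.51 at gain limits of 1.2 and 1.4, 1.45 per total UMIs, 1.47 with TMM scaling, 1.45 over all time 2 cells, 1.5 in cells at or below the median primed level, 1.47 with doublets kept, 1.5 with gains of 1 and 8, 1.49 without a chromosome 1 gain and 1.38 for genes with any UMI. The count of members at 1.2 or more, 346, became 529 of 833 genes with any UMI. These 529 include 20 genes without a UMI in non-gained cells. The count at or below 1/1.2, 8, became 13 at a limit of 1.4 and 20 with cells thinned to 10000 UMIs. It was 16 over all time 2 cells, 4 with gains of 1 and 8 and 18 without a chromosome 1 gain. It was 215 for genes with any UMI and 0 for genes detected in 20% of barcodes. No share over all autosomal genes is given for the rule of any UMI. The proximal part, 1.43, was 1.4 and 1.47 at the 2 limits, 1.4 thinned, 1.42 with shares over autosomes other than 1, 8 and 14, 1.4 per total UMIs, 1.42 with TMM, 1.41 over all time 2 cells, 1.47 at or below the median primed level, 1.41 with doublets, 1.4 with abundant genes kept and 1.4 without a chromosome 1 gain. The distal part, 1.44, was 1.4 and 1.47 at the limits, 1.43 thinned, 1.43 with the other share, 1.42 per total UMIs, 1.43 with TMM, 1.43 with doublets and 1.46 with abundant genes. Lgals3 turned from 2.05 to 0.96 over all time 2 cells; the cause was not tested.

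The gain share at time 1, 0.350%, was 0.529% and 0.166% at limits of 1.2 and 1.4. At time 2, 17.2% became 21.4% and 3.89% at these limits, since the higher limit lies above the upper mode, 14.8% thinned, 20.4% with shares over autosomes other than 1, 8 and 14 and 15.7% with doublets kept. The time 1 median ratio, 1.44, was 1.37 and 1.46 at the limits, 1.36 thinned, 1.43 with doublets and 1.49 without macrophage-marker cells. The passage median, -0.047, was 0.026 over all gated cells, -0.042 per total UMIs, -0.043 with TMM, -0.058 and -0.028 with 0.1 or 10 added to the level, -0.028 in X-low cells, -0.051 with doublets kept, -0.054 without macrophage-marker cells and -0.0027 for genes with any UMI. The 5 doublings became 11 over all gated cells, 1 with 10 added and 2 in X-low cells, and the 1 halving became 8 over all gated cells, 3 with 0.1 added, 0 with 10 added, 2 in X-low cells and 3 for genes with any UMI. The sets with gains of 1 and 8 and without a chromosome 1 gain, and the macrophage filter, were chosen after seeing the data. In all, 85 of 151 recomputed summary values stayed within the counting interval of the first value or, for counts of members, within 1.5-fold. Depth limits the weakest members, whose counting intervals are the widest.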

Other observations

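Fgf17, Mbnl2 and Elf1 were above the member median in the small class of time 2 cells at a chromosome 14 ratio of 1.6 or more as well, at 3.78, 4.01 and 3.43 times the non-gained level, against a member median of 1.96. Of the other members highest in the main set, Pnp2 had 3.96, Kctd6 2.98, Nynrin 2.92 and Dgkh 2.85 there, while Ints6 had 2.10 (1.71 to 2.56) and Lgals3 1.44 (1.08 to 1.87). In the class below 0.7 at time 2, Fgf17 stood at 0.41 (0.15 to 0.90), Mbnl2 at 0.67 (0.32 to 1.23) and Elf1 at 1.14 (0.52 to 2.17). These cells number 30 and 23, so the values of such weakly expressed genes rest on few UMIs.

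Zic5 stood at 0.57 (0.31 to 0.96) of the non-gained level in the class at 1.6 or more, on 14 UMIs. In the class below 0.7 it stood at 0.34 (0.14 to 0.69), on 7 UMIs. Adk, low in both chromosome 1 sets at 1.22 and 1.28, had 1.93 (1.81 to 2.06) in cells without a chromosome 1 gain and 1.26 in the class at 1.6 or more. Phf11d had 1.71 and 1.5 in the chromosome 1 sets and 1.07 (0.85 to 1.32) and 0.98 (0.67 to 1.38) without a chromosome 1 gain and at time 1, while Loxl2, which encodes a lysyl oxidase and was chosen after its values were seen, had 1.23 and 1.09 against 0.93 and 2.39.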
